A study of Mus musculus with 32 samples.

Results

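The genes described here are the conjugating and other non-cytochrome drug-handling enzymes of the mouse liver: UDP-glucuronosyltransferases (Ugt), glutathione S-transferases (Gst), sulfotransferases (Sult), carboxylesterases (Ces), flavin monooxygenases (Fmo), epoxide hydrolases (Ephx) and aldo-keto reductases (Akr). They were taken by name alone, as probes with 1 gene symbol that starts with Ugt, Gst, Sult, Ces, Fmo, Ephx or Akr and goes on with a letter or digit. Of 56 such probes, those of Sult3a1, Sult3a2, Sult2a7, Gstp1, Fmo2, Akr1b10 and Akr1d1 were left out, so that 49 genes remained of the 8426 genes measured: 13 Gst, 10 Ces, 8 Ugt, 6 Sult, 6 Akr, 3 Fmo and 3 Ephx genes, each with 1 probe. The study measured liver RNA of C57BL/6J mice, wild type (WT) or lacking the pregnane X receptor (labelled PXR-KO, here KO), of both sexes, each fed a control diet or a diet with ethanol (labelled EtOH), on 32 Affymetrix arrays, 4 for each of the 8 groups. For the females the design text gives 5% ethanol and pair-feeding of the controls for 8 weeks. For the males the dose and duration are not given in the sources used here, and neither is the way the KO allele was made. The labels do not say that the 4 arrays of a group are 4 animals. The p-values below rest on the spread between arrays, estimated for each gene over all 8 groups together. In whole liver, fewer cells of a type and less RNA per cell cannot be told apart.

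The pregnane X receptor is a nuclear receptor that binds drugs, steroids and bile acids and, with the retinoid X receptor, drives genes of drug metabolism in liver and gut. Carboxylesterases split esters, among them many prodrugs and some lipids. Flavin monooxygenases add oxygen to nitrogen and sulfur, epoxide hydrolases open reactive epoxides, and aldo-keto reductases reduce aldehydes, ketones and steroids. Ugt, Sult and Gst enzymes then attach glucuronic acid, sulfate or glutathione, which makes the products easier to excrete. Several of these genes are known to differ between male and female rodent liver, and many Gst genes and Ephx1 are known targets of the oxidative stress regulator NRF2.

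Levels are the deposited log2 intensities, on which a step of 1 is a doubling. Since each probe has its own brightness, levels were compared between arrays and not between genes. Among the arrays, 3 WT arrays correlated better with another group than with their own over all genes, by more than 0.001. Array 2 of the control-fed WT males correlated at 0.9944 with the other arrays of its group and at 0.9965 with the EtOH-fed WT males. Array 1 of the EtOH-fed WT males did so at 0.9937 with its own group and 0.9986 with the control-fed WT females, and array 1 of the control-fed WT females at 0.9972 with its own group and 0.9984 with the EtOH-fed WT females. The array labelled as male 1 of the EtOH-fed WT group had the male-type gene Slco1a1 at 4.60, where the other male arrays read 7.58 to 10.95 and the female arrays 4.17 to 5.07. A further 3 arrays, all KO, had another best group by a smaller margin: EtOH-fed male array 1 (0.9964 own, 0.9968 control-fed KO males), EtOH-fed female array 3 (0.9975 own, 0.9976 control-fed KO females) and control-fed male array 1 (0.9964 for both diets). Results are therefore given with all arrays and without the 3 WT arrays, and where it matters without all 6. Leaving arrays out by their likeness narrows their groups, and each of these arrays was closest to a group of the other diet. The calls made without them are therefore no independent test, least of all for diet. Apart from this, 10 arrays had a narrower spread of values over all probes (SD 2.367 to 2.435, the others 2.466 to 2.545): all 8 arrays of KO males and arrays 1 and 2 of the control-fed KO females. Among males, the KO genotype and this spread cannot be told apart. Where a term for the narrow arrays is added below, it is set by the control-fed KO females alone, arrays 1 and 2 against the others. This widens the SE of every male genotype difference, so a male genotype call lost with the term does not tell genotype and spread apart. The liver cell markers Alb, Apob, Ttr, Trf, Fgb and Ahsg, 6 of 12 listed, lay between 12.34 and 13.61 on all arrays. All 6 were called lower in control-fed KO males, by a median of -0.16, and 2 of the 6 in control-fed KO females, where the median was -0.12. The mean of 10 of 11 listed Kupffer cell markers was 8.87 to 9.14 in control-fed KO females against 8.31 to 8.79 in the WT, and 8.96 to 9.61 in EtOH-fed KO females against 8.53 to 9.05, with 1 and 3 of the 10 called higher. In EtOH-fed males it was 7.61 to 8.57 in the KO against 8.38 to 8.81 in the WT, with 7 of 10 called lower and a median difference of -0.54, and 1 of 2 endothelial markers was lower there, at -0.85. In control-fed males it was 7.82 to 8.84 in the KO and 7.99 to 8.48 in the WT, with 0 called, and 6 of 10 were called higher in control-fed KO females than in KO males. Group means were 5.22 to 5.54 over 2 of 6 cholangiocyte markers, 7.55 to 8.33 over 2 of 6 endothelial markers and 4.77 to 5.28 over 4 of 6 T and NK cell markers. The 3 of 8 stellate cell markers measured had median KO minus WT differences of -0.29 and -0.36 in control-fed and EtOH-fed females and -0.38 and -0.25 in males, with 0, 2, 2 and 1 of them called. Beside these marker counts, 5.58% and 12.8% of all genes were called by genotype in control-fed and EtOH-fed females, and 55.6% and 40.6% in males. By sex 10.6% of all genes were called in control-fed KO mice. The part of other cell types in the genotype differences was not tested.

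Between KO and WT livers Ces2a was called higher in both sexes on both diets, and most other calls were made in 1 comparison alone. A gene was called when its adjusted p over all genes was below 0.05 in a limma fit on all 32 arrays. In control-fed females 4 genes were higher in the KO and 0 lower, against 5.58% of all genes called in either direction. In EtOH-fed females 8 rose and 0 fell, against 12.8% of all genes. Control-fed KO males had 17 genes higher and 5 lower than the WT, but there 55.6% of all genes were called, and 3.83% when a difference of 1.5-fold was also asked, where 7 of the 49 genes passed. Among genes with a mean of 8 or more, 5 of 36 members passed both, against 5.96%. In EtOH-fed males 6 rose and 5 fell, against 40.6% of all genes. The 22 of 49 called in control-fed males and the 11 of 49 in EtOH-fed males are no larger shares than among all genes, so the counts by adjusted p say nothing particular about drug enzymes, and individual genes are described by size. Without the 3 WT arrays the counts were 5 higher and 0 lower, 10 and 2, 22 and 3, and 7 and 10 in the same order, against 4.31%, 14.9%, 45.4% and 36.5% of all genes. The female control count was 2 without WT array 2 or 4 or KO array 3 or 4, and the female EtOH count 3 to 5 without any 1 of the 4 WT arrays or KO array 1 or 4. The male EtOH count was 4 to 7 without WT array 2 or 4 or KO array 2 or 3. With a term for the narrow arrays 2 genes remained called in control-fed males and 1 in EtOH-fed males. Groups without overlap are common in these data. KO and WT arrays did not overlap for 16.1% and 19.4% of all genes in control-fed and EtOH-fed females, and 37.4% and 27.7% in males. The control-fed sexes did not overlap for 10.9% in the WT and 13.3% in the KO. The diets did not overlap for 7.43% and 8.68% in WT and KO females, and 9.77% and 5.82% in WT and KO males. The comparisons within 1 sex and diet use separate arrays. Ces2a was called in all 4 of them, 7 genes in 2, 27 in 1 and 14 in none.

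**Figure D1:**
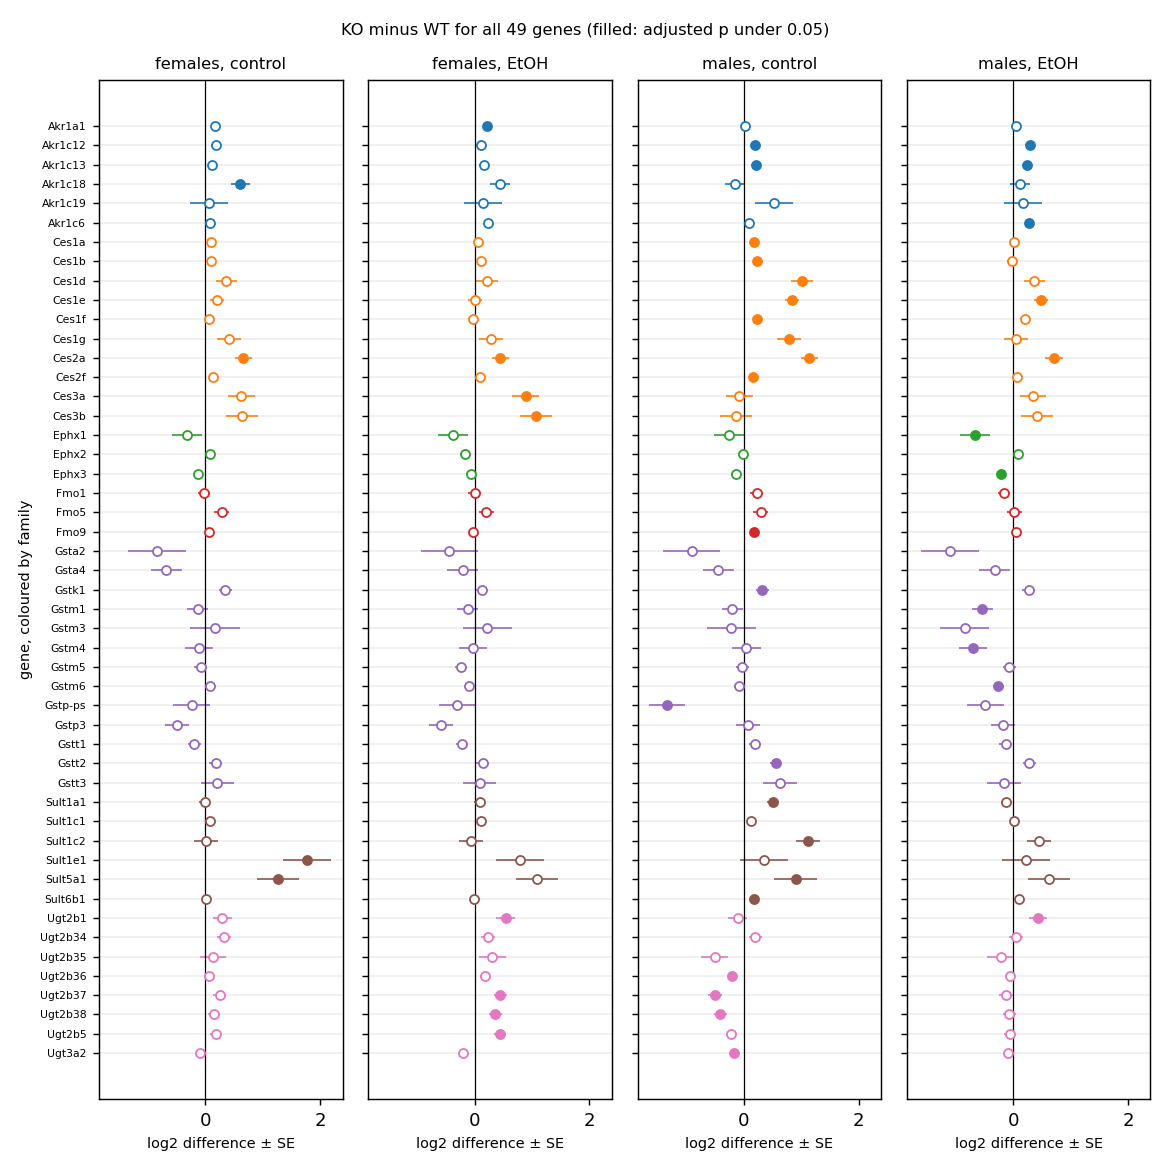
Log2 difference (KO minus WT) with its standard error for each of the 49 genes in the 4 sex and diet groups, coloured by family, with filled points for adjusted p under 0.05. Ces2a lies to the right in every panel (0.66, 0.45, 1.14 and 0.71), and the Ugt2b genes lie right of 0 in the female panels, while all but Ugt2b34 lie left of it in control-fed males.

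Among the 10 carboxylesterases, Ces2a was raised in every KO group, the Ces1 genes in control-fed KO males and Ces3a and Ces3b in EtOH-fed KO females. Ces2a hydrolyses esters in the endoplasmic reticulum of liver and gut. On control diet it read 9.98, 9.76, 9.95 and 9.81 in the 4 WT females and 10.50, 10.66, 10.46 and 10.54 in the 4 KO females, a difference of 0.66 ± 0.15 (SE, adjusted p = 0.00609). In EtOH-fed females the WT arrays read 10.15, 10.15, 10.16 and 10.29 and the KO arrays 10.61, 10.68, 10.62 and 10.65, a difference of 0.45 ± 0.15 (SE, adjusted p = 0.0427). The control-fed males read 9.81, 10.05, 9.14 and 9.43 in the WT and 10.61, 10.86, 10.79 and 10.73 in the KO, a difference of 1.14 ± 0.15 (SE, adjusted p = 4.94e-06). EtOH-fed males read 9.71, 10.41, 10.65 and 10.08 in the WT and 10.71, 10.90, 11.10 and 10.95 in the KO, a difference of 0.71 ± 0.15 (SE, adjusted p = 0.00177). In none of the 4 comparisons did the KO and WT arrays overlap, and the WT male arrays were the most scattered. The call in EtOH-fed females was lost without any 1 of its 8 arrays (adjusted p = 0.0531 to 0.0968). The differences without the 3 WT arrays were 0.70, 0.45, 1.29 and 0.54. With the narrow arrays 1 and 2 of the control-fed KO females left out, the difference was 0.63 on control diet (adjusted p = 0.0655) and 0.45 on EtOH (adjusted p = 0.0511), so the sizes stayed while the calls were not made. The EtOH comparison holds neither of those arrays. With a term for the narrow arrays Ces2a was not called in control-fed females (0.63, adjusted p = 0.0591) or EtOH-fed males (0.63, adjusted p = 0.323). Only its call in control-fed males held in every alternative.

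The 250 bases before the Ces2a start are shown because it is the gene called in every group. RefSeq places them at chr8:104733753-104734002, plus strand, build GRCm38.p6. The capitals mark AGGTCA, the short motif that many nuclear receptors recognise, found from base -226 to -221 before the start.
Ces2a: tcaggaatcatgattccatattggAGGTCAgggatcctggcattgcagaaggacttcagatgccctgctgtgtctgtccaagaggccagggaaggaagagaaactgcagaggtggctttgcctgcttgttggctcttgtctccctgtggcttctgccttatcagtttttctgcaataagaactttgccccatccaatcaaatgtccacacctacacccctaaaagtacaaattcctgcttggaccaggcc
On either strand AGGTCA is present in 14% of 32851 mouse promoter windows of this length, so the match is a description and no binding site. Windows were at hand for 40 of the 49 genes, 46 windows in all, of which 8 held it: those of Ces2a, Gstk1, Sult1e1, Ugt2b5, Ugt2b35, Ugt2b36, Ugt2b37 and Ugt2b38.

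The Ces1 group behaved otherwise: its 6 genes were all called higher in control-fed KO males and none of them was called in females. Of all genes 33.5% were called higher in control-fed KO males, against 2.78% and 4.93% in control-fed and EtOH-fed KO females. Ces1d, a lipase that mobilises stored triglyceride in the liver cell, read 9.93, 10.67, 9.33 and 9.95 in WT males and 11.04, 11.00, 11.08 and 10.81 in KO males, a difference of 1.01 ± 0.19 (SE, adjusted p = 0.000337). Ces1g, an esterase that limits lipid secretion from the liver, read 9.98, 10.36, 9.23 and 9.43 against 10.41, 10.69, 10.69 and 10.39, a difference of 0.79 ± 0.21 (SE, adjusted p = 0.00437). Ces1e, which holds beta-glucuronidase in the endoplasmic reticulum, read 9.78, 9.27, 9.09 and 9.26 against 10.11, 10.01, 10.38 and 10.25, a difference of 0.84 ± 0.12 (SE, adjusted p = 3.13e-05). For all 3 the groups did not overlap, as was so for 37.4% of all genes, and array 3 was the lowest of the WT arrays. Ces1b moved less, from 9.25, 9.42, 8.90 and 9.28 to 9.52, 9.50, 9.39 and 9.36, a difference of 0.23 ± 0.08 (SE, adjusted p = 0.0153), and lost its call without WT array 3 (adjusted p = 0.108). With a term for the narrow arrays Ces1d, Ces1g, Ces1e and Ces1b gave 1.00, 0.62, 0.77 and 0.27 in control-fed males, none called (adjusted p = 0.0789 to 0.382). In EtOH-fed males only Ces1e of the 6 was called, at 9.64, 9.46, 9.71 and 9.33 in the WT and 9.86, 10.04, 10.34 and 9.83 in the KO, a difference of 0.48 ± 0.12 (SE, adjusted p = 0.00639). That call too was lost with the narrow-array term (0.41, adjusted p = 0.457).

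In the WT the same genes differed by sex. Ces1d read 11.04, 10.58, 10.78 and 10.34 in control-fed WT females, with male array 2 above female arrays 2 and 4, a female minus male difference of 0.72 ± 0.19 (adjusted p = 0.0221). The call was lost without male array 3 or 4 or female array 1 or 3 (adjusted p = 0.0509 to 0.142). For Ces1e the females read 9.78, 9.84, 10.01 and 9.64, a difference of 0.47 ± 0.12 (adjusted p = 0.0234), with male array 1 at the level of female array 1 and above female array 4. It was lost without male array 2, 3 or 4 or female array 2 or 3 (adjusted p = 0.0528 to 0.129) and without the 3 WT arrays (adjusted p = 0.0962). For Ces1b they read 9.67, 9.50, 9.63 and 9.49, with 0.36 ± 0.08 (adjusted p = 0.00436) and no overlap. In control-fed KO mice the sex differences of Ces1d, Ces1e and Ces1b were 0.07, -0.16 and 0.23, none called. The WT sex difference and the male genotype difference share the control-fed WT males, and the difference between the sexes in the genotype effect, tested directly, was called for no carboxylesterase.

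Ces3a and its neighbour Ces3b, a paralog for which shared signal was not checked, were male-high in the WT and higher in the KO of EtOH-fed females. Ces3a read 11.71, 11.36, 11.60 and 11.47 in control-fed WT females and 12.36, 12.43, 12.59 and 12.78 in the males, means of 11.54 ± 0.15 and 12.54 ± 0.19 (SD, n = 4, adjusted p = 0.00982), with every male above every female. EtOH-fed WT females read 11.00, 11.50, 11.73 and 10.08 and KO females 11.68, 12.32, 11.89 and 12.00, a difference of 0.89 ± 0.23 (SE, adjusted p = 0.0132). The groups overlapped, WT array 4 was far below the rest, and without it the call was lost (adjusted p = 0.0613). Ces3b gave -1.03 ± 0.28 (adjusted p = 0.0322) for sex and a difference of 1.07 ± 0.28 (SE, adjusted p = 0.014) in EtOH-fed females, where WT array 4 was likewise lowest at 8.79. The remaining members Ces1a, Ces1f and Ces2f were called only in control-fed KO males, at 0.17, 0.23 and 0.15.

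**Figure D2:**
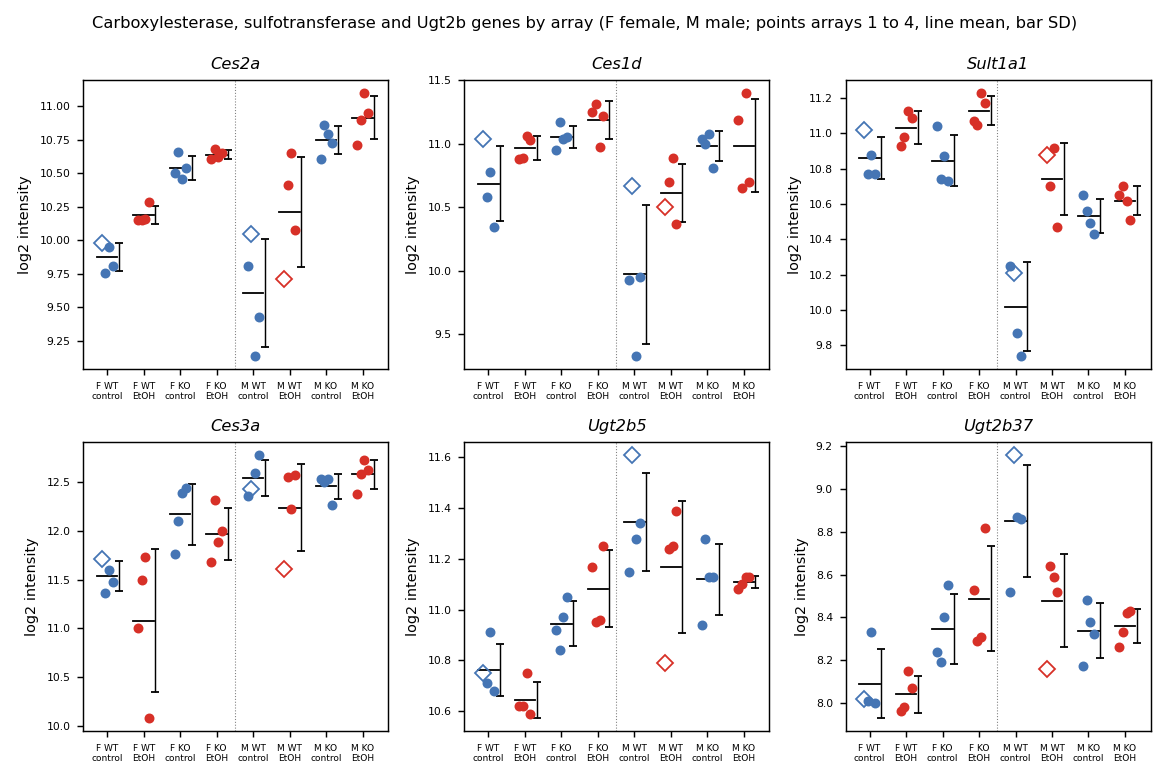
Log2 intensity of Ces2a, Ces1d, Sult1a1, Ces3a, Ugt2b5 and Ugt2b37 on every array of the 8 groups (F female, M male, blue control diet, red EtOH diet, black line mean, bar SD), with open diamonds for the 3 WT arrays that resembled another group. Control-fed WT males sit lowest for Ces1d and Sult1a1 and highest for Ugt2b5 and Ugt2b37, and KO arrays sit above WT arrays for Ces2a in every pair.

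The Ugt2b genes, a cluster of close paralogs on chromosome 5 whose enzymes conjugate steroids, bile acids and drugs, were male-high in the WT. In the KO some of them fell in control-fed males and some rose in EtOH-fed females. Of the 7 Ugt2b genes measured 6, all but Ugt2b34, were called lower in control-fed WT females than in males, against 2.92% of all genes. Paralogs this close may share signal between probes, so the 6 are not 6 independent observations. Ugt2b37 read 8.02, 8.01, 8.33 and 8.00 in the WT females and 8.52, 9.16, 8.87 and 8.86 in the WT males, -0.76 ± 0.12 (adjusted p = 0.000249). Ugt2b38 read 9.18, 9.10, 9.42 and 9.10 against 9.59, 10.09, 9.88 and 9.99, -0.69 ± 0.11 (adjusted p = 0.000302). Ugt2b5 read 10.75, 10.71, 10.91 and 10.68 against 11.15, 11.61, 11.28 and 11.34, -0.58 ± 0.10 (adjusted p = 0.000507). In each of these 3 every male array lay above every female array, and each call held without any 1 array. Ugt2b36 read 10.60, 10.48, 10.75 and 10.56 in females and 10.89, 11.23, 10.88 and 10.93 in males, -0.39 ± 0.08 (adjusted p = 0.00259). Ugt2b35 had a mean of 9.69 ± 0.29 (SD, n = 4) in females and read 10.25, 11.03, 10.47 and 10.32 in males, -0.83 ± 0.23 (adjusted p = 0.0346), with the call lost without male array 2 or 3 or female array 2 or 4 (adjusted p = 0.0759 to 0.115). Ugt2b1 gave -0.75 ± 0.16 (adjusted p = 0.00491). In control-fed KO mice none of the 7 was called for sex, and their differences ran from -0.34 to 0.06.

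In control-fed KO males 3 of the 7 fell, where 55.6% of all genes were called and 22.1% were called lower. Ugt2b37 read 8.17, 8.48, 8.38 and 8.32, all below the WT males, a difference of -0.51 ± 0.12 (SE, adjusted p = 0.00235). Ugt2b38 read 9.26, 9.68, 9.45 and 9.49, a difference of -0.41 ± 0.11 (SE, adjusted p = 0.00501), with KO array 2 above WT array 1, and was not called without all 6 arrays that had another best group (adjusted p = 0.0555). Ugt2b36 read 10.61, 10.84, 10.79 and 10.84, a difference of -0.21 ± 0.08 (SE, adjusted p = 0.0233), and lost its call without WT array 2 or KO array 1 (adjusted p = 0.095 to 0.143), and also without the 3 WT arrays, with each array centred on its median and after quantile normalization. With a term for the narrow arrays Ugt2b37 gave -0.25 (adjusted p = 0.53), Ugt2b38 -0.23 (adjusted p = 0.552) and Ugt2b36 -0.16 (adjusted p = 0.53), none called. Ugt3a2, which uses other sugars than glucuronic acid, fell by 0.17 ± 0.07 (adjusted p = 0.0483) in control-fed KO males. EtOH-fed females went the other way, with 4 of 7 Ugt2b genes higher in the KO, against 12.8% of all genes called. Ugt2b5 read 10.62, 10.62, 10.75 and 10.59 in the WT and 11.17, 10.95, 10.96 and 11.25 in the KO, a difference of 0.44 ± 0.10 (SE, adjusted p = 0.00587), held in every alternative run. Ugt2b37 read 7.96, 7.98, 8.15 and 8.07 and 8.53, 8.29, 8.31 and 8.82, a difference of 0.45 ± 0.12 (SE, adjusted p = 0.0164), lost without KO array 1 or 4 (adjusted p = 0.0517 to 0.0809). Ugt2b38 read 9.15, 9.13, 9.17 and 9.23 and 9.54, 9.33, 9.41 and 9.87, a difference of 0.36 ± 0.11 (SE, adjusted p = 0.031), lost without any 1 of WT arrays 1 to 3 or KO arrays 1 and 4 (adjusted p = 0.0584 to 0.148). The groups did not overlap for any of these 3, and Ugt2b1 rose by 0.54. In EtOH-fed males Ugt2b1 alone was called, at a difference of 0.43 ± 0.16 (SE, adjusted p = 0.0359), and was not called without the 3 WT arrays.

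The difference between the sexes in the genotype effect was tested directly, and with all arrays Ugt2b genes were the only members called. On control diet 1 gene was called, Ugt2b37, against 0.297% of all genes: its KO minus WT difference was larger in females than in males by 0.77 ± 0.17 (adjusted p = 0.0469). On EtOH diet 2 were called, against 10.7% of all genes, Ugt2b37 at 0.57 ± 0.17 (adjusted p = 0.0385) and Ugt2b5 at 0.49 ± 0.14 (adjusted p = 0.0328). The control-diet call was lost without the 3 WT arrays (adjusted p = 0.0776) and without any 1 of 10 arrays, among them male WT arrays 2, 3 and 4 (adjusted p = 0.0595 to 0.121). The EtOH calls were lost without any 1 of 10 arrays for Ugt2b37 (adjusted p = 0.0515 to 0.0842) and any 1 of 7 for Ugt2b5 (adjusted p = 0.0516 to 0.0678), and were both made without the 3 WT arrays, while none of the 3 calls was made after quantile normalization or with a term for the narrow arrays. Without the 3 WT arrays 0 members were called on control diet, against 0.392% of all genes, and 9 on EtOH, against 9.4%.

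The last 100 bases before the start of the 7 measured Ugt2b genes are shown because 6 of these genes were called male-high in the WT and 1, Ugt2b34, was not. All lie on chromosome 5 of GRCm38.p6 as RefSeq gives it, on the minus strand except Ugt2b35. The capitals mark AGGTCA, and in Ugt2b37 also TGAACT, which is AGTTCA on the other strand.
Ugt2b5, chr5:87140341-87140440: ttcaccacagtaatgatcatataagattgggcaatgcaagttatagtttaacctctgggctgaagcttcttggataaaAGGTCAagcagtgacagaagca
Ugt2b36, chr5:87092556-87092655: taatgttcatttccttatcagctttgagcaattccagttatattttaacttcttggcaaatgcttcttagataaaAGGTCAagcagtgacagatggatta
Ugt2b37, chr5:87254789-87254888: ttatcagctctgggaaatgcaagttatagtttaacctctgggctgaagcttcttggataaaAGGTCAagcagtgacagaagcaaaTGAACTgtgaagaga
Ugt2b38, chr5:87424204-87424303: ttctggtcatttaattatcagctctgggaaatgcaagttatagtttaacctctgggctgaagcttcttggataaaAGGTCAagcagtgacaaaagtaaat
Ugt2b35, chr5:87000760-87000859: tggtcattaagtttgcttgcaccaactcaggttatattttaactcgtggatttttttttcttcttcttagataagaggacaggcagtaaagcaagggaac
Ugt2b1, chr5:86926504-86926603: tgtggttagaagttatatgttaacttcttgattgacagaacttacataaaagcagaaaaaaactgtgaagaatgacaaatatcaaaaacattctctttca
Ugt2b34, chr5:86906938-86907037: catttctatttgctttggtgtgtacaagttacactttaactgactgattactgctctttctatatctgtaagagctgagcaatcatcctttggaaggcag
Of these 7 windows 4 held AGGTCA, at -22 to -17 in Ugt2b5, -25 to -20 in Ugt2b36 and Ugt2b38, and -39 to -34 in Ugt2b37, against 5.88% of all mouse promoter windows of this length. The 4 are paralogs with closely related sequence around the motif, so they count as related copies. Ugt2b35 and Ugt2b1, male-high as well, do not hold these letters in the 100 bases shown.

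In each of the 4 EtOH comparisons the probe with the largest rise among the 49 was of the Gst family: Gsta2 by 1.07 in WT females and 1.47 in KO females, Gstt3 by 1.36 in WT males and the pseudogene Gstp-ps by 0.64 in KO males, of which the one in WT males was called. The mu and alpha enzymes Gstm1, Gstm3, Gstm4, Gsta2 and Gsta4 conjugate drugs and reactive aldehydes, and Ephx1 is the microsomal hydrolase of foreign epoxides. Across these 6 genes, a set chosen after their values were seen, array 2 was the highest of its group for 6 of 6 in control-fed WT males, as was array 1 in control-fed WT females and array 1 in EtOH-fed KO females. Array 1 of the EtOH-fed WT males was the lowest of its group for 6 of 6. The opposite ends of the male groups were as uniform, with control array 4 the lowest and EtOH array 3 the highest for 6 of 6, so the genes ranked the WT male arrays alike beyond the 3 arrays in doubt.

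Gsta2 read 7.85, 9.99, 8.11 and 6.98 in control-fed and 7.01, 9.23, 9.98 and 9.73 in EtOH-fed WT males, 0.76 ± 0.50 (adjusted p = 0.372), not called. In WT females it read 8.39, 7.13, 7.85 and 7.02 and 9.12, 8.25, 8.11 and 9.21, 1.07 ± 0.50 (adjusted p = 0.427). KO females read 7.17, 6.57, 6.77 and 6.52 and 9.11, 7.73, 7.91 and 8.18, 1.47 ± 0.50 (adjusted p = 0.158). The control and EtOH arrays overlapped in the WT of both sexes but not in KO females. KO males read 7.35, 7.26, 7.36 and 7.31 and 7.75, 7.78, 8.16 and 7.89, 0.58 ± 0.50 (adjusted p = 0.708), also without overlap. The fit takes 1 spread for each gene over all 8 groups, here and in every comparison. For Gsta2 the SD on control diet and EtOH was 1.27 and 1.36 in WT males but 0.04 and 0.19 in KO males. The SE and adjusted p given for KO males thus carry the scatter of other groups, and the missing call does not show an unchanged level. Gstm3 in WT males read 10.37, 12.32, 10.71 and 9.55 on control diet and 10.50, 12.05, 12.50 and 12.12 on EtOH, 1.05 ± 0.43 (adjusted p = 0.121), and in WT females 11.82, 10.64, 10.12 and 10.42 and 11.68, 11.35, 11.15 and 11.81, 0.75 ± 0.43 (adjusted p = 0.514). Gstm1 read 12.08, 13.01, 12.25 and 12.07 and 12.16, 12.88, 12.96 and 12.90 in WT males, 0.37 ± 0.18 (adjusted p = 0.194). Ephx1 read 11.17, 12.32, 11.07 and 10.80 and 11.10, 12.00, 12.14 and 12.04, 0.48 ± 0.26 (adjusted p = 0.243). Where the groups overlapped in WT males it was through control array 2 and EtOH array 1.

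Over all 49 genes, the EtOH diet raised 8 genes and lowered 0 in WT males, against 8.17% of all genes called. In WT females 0 were called by limma, and 0% of all genes, in KO females 0, against 0.0237%, and in KO males 0, against 0.273%. At an unadjusted p below 0.05 the counts were 10, 9 and 4 in these groups, against 11.2%, 19.4% and 12.6% of all genes. The 8 were Gstt3, Gstt1, Gstm4, Ces1g, Ces1d, Ces2a, Sult1a1 and Fmo1. Single arrays decided this count: it was 17 without control array 2 and 13 without EtOH array 1, 3 without control array 4, and 1 without control array 3 or EtOH array 3. On the 8 arrays of WT males alone it was 0. Each of the 6 arrays with another best group was closest to a group of the other diet. Leaving them out thus moves the diets apart by the way they were chosen, and the counts that follow are no test of the diet. Without the 3 WT arrays 18 genes rose in WT males, against 16.6% of all genes, and 9 in WT females, against 2.77%. Then 7 were called in both sexes of the WT, by 2.00 and 1.34 for Gsta2 in males and females, 2.01 and 1.11 for Gstm3, 1.43 and 0.91 for Akr1c19, and 1.05 and 0.81 for Ephx1, with Gsta4, Gstm1 and Ugt2b34 as the others, against 1.32% of all genes called higher in both. Without all 6 arrays the same 7 genes were called in both sexes, against 1.46%, with 18 called in WT males, against 17%, and 9 in WT females, against 3.01%. The further arrays left out there are all KO, so these WT comparisons hold the same WT arrays as before. They differ only through the spread shared by all groups and are no second check. In KO females 2 rose without the 3 WT arrays, against 0.225%, Gsta2 by 1.47 and Gsta4 by 1.02, and in KO males 0, against 0.273%, while without all 6 arrays 6 rose in KO females, against 1.46%.

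Whether the diet effect itself differed between genotypes was tested by its own term. With all arrays limma called 0 members in either sex, and 0% of all genes, with 1 in females and 12 in males at an unadjusted p below 0.05, against 8.53% and 18.1% of all genes. Without the 3 WT arrays 14 genes had a smaller EtOH effect in KO than in WT males, against 5.49% of all genes, led by Gstm3 at -1.59, Gsta2 at -1.43, Gstt3 at -1.38 and Gstm4 at -1.28, while in females 0 were called, against 0.0237%. Only WT arrays are left out there, each for its likeness to a group of the other diet, which enlarges the WT diet effect by the choice itself. Without all 6 arrays the male count was 10, against 3.47%.

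**Figure D3:**
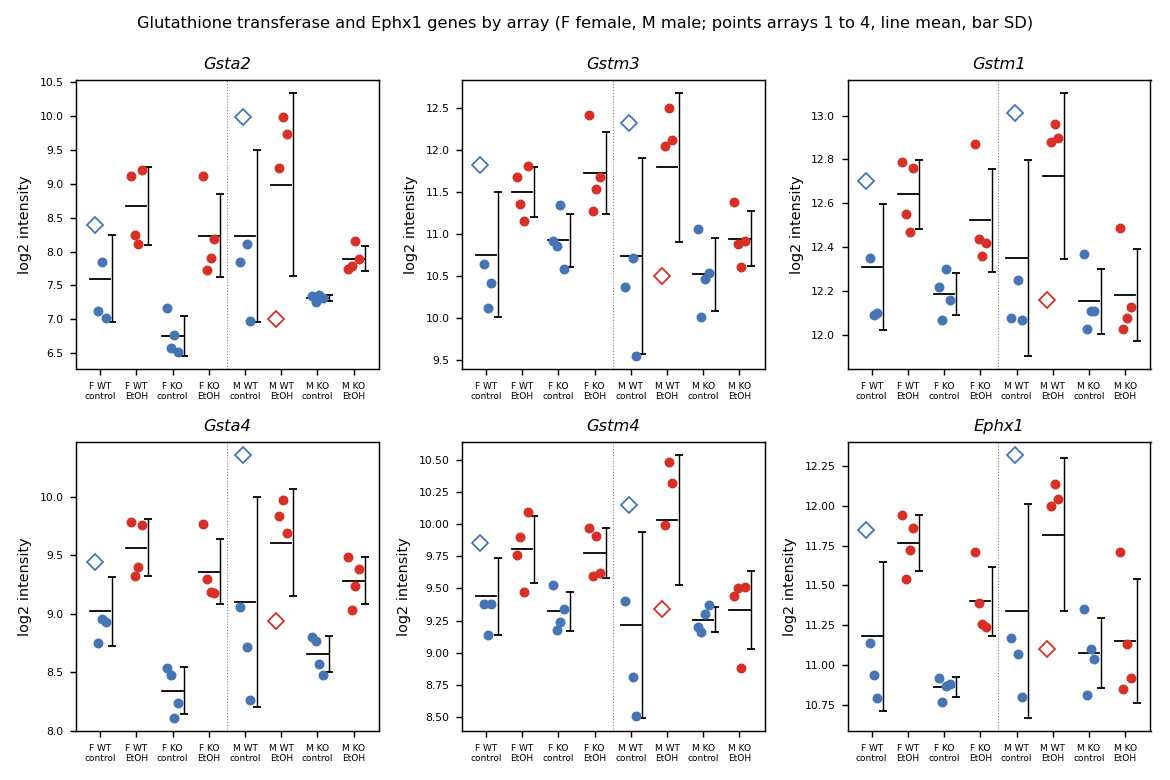
Log2 intensity of Gsta2, Gstm3, Gstm1, Gsta4, Gstm4 and Ephx1 on every array of the 8 groups (F female, M male, blue control diet, red EtOH diet, black line mean, bar SD), with open diamonds for the 3 WT arrays that resembled another group. In control-fed WT males the diamond (array 2) is the highest point and in EtOH-fed WT males the diamond (array 1) the lowest in all 6 panels.

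By genotype, 3 of 13 Gst genes fell in EtOH-fed KO males, Gstm1, Gstm4 and Gstm6, where 40.6% of all genes were called and 17.2% were called lower. Gstm1 read 12.49, 12.03, 12.08 and 12.13 in the KO, a difference of -0.54 ± 0.18 (SE, adjusted p = 0.0218), with WT array 1 among the KO values, and was not called without WT array 2, 3 or 4 or KO array 2 or 3 (adjusted p = 0.0508 to 0.0685). Gstm4 fell by 0.70 and Gstm6 by 0.26. In the same comparison 7 of 10 Kupffer cell markers were lower in the KO, and their part in these values was not tested. Ephx1 read 11.71, 10.85, 11.13 and 10.92, a difference of -0.66 ± 0.26 (SE, adjusted p = 0.0397), likewise lost without WT array 2, 3 or 4 or KO array 2, 3 or 4 (adjusted p = 0.0715 to 0.114), with arrays centred on their medians and after quantile normalization. With a term for the narrow arrays Gstm1 (-0.46, adjusted p = 0.581) and Ephx1 (-0.63, adjusted p = 0.593) were not called. Without the 3 WT arrays 7 Gst genes were lower in EtOH-fed KO males, among them Gsta2 at -1.76 and Gstm3 at -1.28, where 36.5% of all genes were called. EtOH-fed WT male array 1, which is left out there, was the lowest of its group for both Gsta2 and Gstm3. Ephx3, a dim probe between 3.78 and 4.33 on all arrays, fell by 0.22 ± 0.08 (adjusted p = 0.0314) in the fit, a call lost without WT array 2, 3 or 4 or KO array 2 or 3 (adjusted p = 0.0541 to 0.115) and with arrays centred on their medians (adjusted p = 0.161). It is below the lowest array median of 5.288 and was not shown to be above background.

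In control-fed males the probe of Gstp-ps, a pseudogene of the pi class whose sequence is close to that of Gstp1 and Gstp2, gave the largest difference of the family. It read 10.18, 11.41, 11.09 and 11.35 in the WT and 9.91, 9.73, 9.77 and 9.28 in the KO, a difference of -1.34 ± 0.32 (SE, adjusted p = 0.00224), and the groups did not overlap. In control-fed WT females it read 10.28, 9.45, 8.95 and 9.19, a female minus male difference of -1.54 ± 0.32 (adjusted p = 0.00329), with female array 1 above male array 1. Which pi-class transcript the probe reads was not resolved. The theta gene Gstt2 rose from 7.74, 7.82, 7.71 and 7.36 to 8.29, 8.19, 8.36 and 8.02, a difference of 0.56 ± 0.11 (SE, adjusted p = 0.000755). Gstk1, the mitochondrial and peroxisomal kappa enzyme, rose from 10.64, 10.64, 10.55 and 10.56 to 11.01, 10.73, 11.12 and 10.82, a difference of 0.32 ± 0.11 (SE, adjusted p = 0.0179), and was not called without KO array 3 (adjusted p = 0.0721) or without all 6 arrays with another best group (adjusted p = 0.0772). Neither gene had overlapping groups, as was so for 37.4% of all genes. With a term for the narrow arrays Gstp-ps (-1.23, adjusted p = 0.26) and Gstt2 (0.55, adjusted p = 0.172) were not called.

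Female-high in the WT were Gstt3 and Gstp3. Gstt3 read 8.72, 8.43, 8.31 and 8.17 in control-fed WT females and 7.75, 8.50, 6.66 and 6.65 in males, 1.02 ± 0.29 (adjusted p = 0.0421), with male array 2 among the females, and was not called without male array 3 or 4 or any 1 female array (adjusted p = 0.0535 to 0.209). In EtOH-fed WT males it read 8.08, 8.67, 9.55 and 8.68, the largest called EtOH rise among the 49 genes, 1.36 ± 0.29 (adjusted p = 0.0125), lost without control array 3 or EtOH array 3 (adjusted p = 0.0616 to 0.07). Gstp3 read 8.79, 9.18, 8.05 and 9.07 in females and 8.29, 8.22, 7.87 and 7.52 in males, 0.80 ± 0.21 (adjusted p = 0.0262), with female array 3 below male arrays 1 and 2. It lost its call without male array 3 or 4 or female array 1, 2 or 4 (adjusted p = 0.0643 to 0.118). The soluble hydrolase Ephx2, which acts on fatty acid epoxides, was lower in WT females, at 11.32, 11.12, 11.42 and 11.12 against 11.46, 11.38, 11.59 and 11.72, -0.29 ± 0.08 (adjusted p = 0.0353), lost without male array 3 or 4 or female array 2 or 4 (adjusted p = 0.115 to 0.144) and after quantile normalization (adjusted p = 0.106).

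The sulfotransferase Sult1a1, which conjugates phenols, showed the clearest sex difference of all 49 genes. It read 11.02, 10.77, 10.88 and 10.77 in control-fed WT females and 10.25, 10.21, 9.87 and 9.74 in males, 0.84 ± 0.10 (adjusted p = 5.68e-06), the smallest adjusted p of any member in this comparison and a call held in every alternative. KO males read 10.65, 10.56, 10.49 and 10.43, above all WT males, a difference of 0.51 ± 0.10 (SE, adjusted p = 0.000563). With the narrow-array term this difference was 0.42 and not called (adjusted p = 0.226). EtOH-fed WT males read 10.88, 10.70, 10.92 and 10.47, again above all control-fed WT males, 0.73 ± 0.10 (adjusted p = 0.000337). The call held without any 1 array but not on the arrays of WT males alone (adjusted p = 0.13). KO females read 11.04, 10.74, 10.87 and 10.73 on control diet, and the sex difference in KO mice was 0.31 ± 0.10 (adjusted p = 0.0444). That call was lost without any 1 of 6 of its 8 arrays (adjusted p = 0.0584 to 0.121), after quantile normalization (adjusted p = 0.11), with arrays centred on their medians (adjusted p = 0.0904), without the dimmest genes (adjusted p = 0.0636), with the narrow-array term (adjusted p = 0.157) and without the narrow KO female arrays (adjusted p = 0.124). The control-fed WT males enter 3 of these comparisons.

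Sult1c2 followed the same order. WT females read 7.08, 7.53, 7.71 and 7.07, WT males 6.90, 6.21, 5.64 and 6.19 and KO males 7.37, 7.18, 7.55 and 7.28 on control diet. The sex difference in the WT was 1.11 ± 0.21 (adjusted p = 0.0014) and KO and WT males had a difference of 1.11 ± 0.21 (SE, adjusted p = 0.000418). All WT females and all KO males lay above all WT males, both calls held without any 1 array, and they share the control-fed WT males. The genotype call was lost with the narrow-array term (0.88, adjusted p = 0.223), and the sex call on the arrays of that comparison alone (adjusted p = 0.0763). Sult1e1, the estrogen sulfotransferase, was near the lowest intensities on most arrays, between 2.43 and 3.09 in every group other than KO females. In control-fed KO females it read 5.94, 2.68, 5.61 and 3.49, so that arrays 1 and 3 stood apart, against 2.54, 2.62, 3.01 and 2.43 in the WT. The fit gave a difference of 1.78 ± 0.42 (SE, adjusted p = 0.0103), and without KO array 1 or 3 no call was made (adjusted p = 0.0503 to 0.054). Sult5a1 was higher in control-fed KO females and males, by 1.27 and 0.90. Sult6b1, at 2.59 to 2.94 everywhere and so not shown to be above background, rose by 0.17 in control-fed KO males, a direction that turned to -0.08 after quantile normalization. Sult1c1 was called in no comparison.

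Fmo1 and Fmo5, which oxygenate drugs with nitrogen or sulfur, differed by sex in opposite directions. Fmo1 read 10.82, 10.48, 10.63 and 10.49 in control-fed WT females and 9.90 to 10.53 in males, 0.49 ± 0.11 (adjusted p = 0.00591), with male array 2 above female arrays 2 and 4. On EtOH the WT males read 10.67, 10.64, 10.66 and 10.41, 0.48 ± 0.11 (adjusted p = 0.0138), lost without control array 3 or EtOH array 3 (adjusted p = 0.0633 to 0.0677). Fmo5 read 9.50, 9.26, 9.41 and 9.18 in WT females and 9.91, 9.83, 9.75 and 9.77 in males, -0.48 ± 0.13 (adjusted p = 0.0293). In the KO it read 9.73, 9.58, 9.73 and 9.48 in females and had a mean of 10.11 ± 0.15 (SD, n = 4) in males, -0.48 ± 0.13 (adjusted p = 0.022). The sexes did not overlap in either genotype, the difference had the same size in both, and leaving out 1 array lifted the adjusted p to 0.0508 to 0.0954 in the WT (any male array, female array 2 or 4) and to 0.0532 to 0.0723 in the KO (male array 1, female array 4). Fmo9 lay between 3.41 and 3.77 on all arrays, below the array medians. Its call in control-fed KO males, 0.18, was lost after quantile normalization.

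Among the 6 aldo-keto reductases, called genotype differences were 0.29 or less except that of Akr1c18. Akr1a1, an aldehyde reductase, read 10.06, 9.94, 10.03 and 10.03 in EtOH-fed WT females and 10.33, 10.24, 10.26 and 10.12 in the KO, without overlap, a difference of 0.22 ± 0.06 (SE, adjusted p = 0.0185), lost without WT array 2 or KO array 1 (adjusted p = 0.066 to 0.082). In EtOH-fed males 3 of the 5 Akr1c genes, a cluster of steroid and ketone reductases on chromosome 13, were higher in the KO. There 40.6% of all genes were called. Akr1c12 read 8.56, 8.38, 8.24 and 8.20 in the WT and 8.63, 8.55, 8.73 and 8.64 in the KO, a difference of 0.29 ± 0.08 (SE, adjusted p = 0.00681). Akr1c13 read 8.76, 8.53, 8.64 and 8.40 and 8.87, 8.76, 8.88 and 8.79, a difference of 0.24 ± 0.08 (SE, adjusted p = 0.0242). Akr1c6, a hydroxysteroid dehydrogenase, read 10.85, 10.86, 10.84 and 10.89 and 10.97, 11.24, 11.21 and 11.15, a difference of 0.28 ± 0.08 (SE, adjusted p = 0.0131). WT and KO were separate for Akr1c6, met at 8.76 for Akr1c13 and overlapped through WT array 1 for Akr1c12. Akr1c13 lost its call without WT array 2 or 4 or KO array 3 (adjusted p = 0.0573 to 0.0912). In control-fed males Akr1c12 and Akr1c13 gave 0.20 ± 0.08 (adjusted p = 0.0308) and 0.21 ± 0.08 (adjusted p = 0.0315), each lost without WT array 3 or 4 or KO array 2, 3 or 4 (adjusted p = 0.056 to 0.121 and adjusted p = 0.0612 to 0.148). With a term for the narrow arrays none of these male calls was made. Akr1c12, Akr1c13 and Akr1c6 then gave 0.20, 0.15 and 0.36 in EtOH-fed males (adjusted p = 0.558, 0.707 and 0.31). In control-fed males Akr1c12 and Akr1c13 gave 0.11 and 0.12 (adjusted p = 0.694 and 0.69). Akr1c18, which inactivates progesterone, was higher in control-fed KO females by 0.61, at intensities below the array medians. Akr1c19, another member of the cluster, was called in no comparison with all arrays. It read 7.59, 9.20, 7.37 and 7.62 in control-fed and 7.43, 8.96, 9.06 and 8.84 in EtOH-fed WT males, where control array 2 lay above all EtOH arrays and EtOH array 1 among the other control arrays, and 8.70, 8.60, 8.53 and 8.06 in control-fed KO males. Without the 3 WT arrays it was called for the EtOH rises given above at 0.95 for genotype in control-fed males and at -1.15 for diet by genotype in males.

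In the WT the share of members called for sex was larger than that of all genes. Of the 49 genes, 8 were female-high and 11 male-high in control-fed WT mice, against 4.69% of all genes called. The Ugt2b, Ces1 and Ces3 genes among them are paralogs whose shared signal was not checked, so these calls are not independent. The members were also chosen with earlier results of these data known, so the count is a description and no test. Bright probes are called more often, and among genes with a mean of 8 or more 18 of 36 members were called against 9.39% of all such genes. In control-fed KO mice 3 were female-high and 1 male-high, against 10.6% of all genes. Without the 3 WT arrays the counts were 9 and 11 in the WT, against 3.55%, and 5 and 1 in the KO, against 10.4%. The WT count fell to 11 without male array 3 and to 12 without female array 2, and on the arrays of that comparison alone to 7. The KO count was 1 or 2 without male array 2, 3 or 4 or female array 1, 3 or 4. The differences in the KO use other arrays than those in the WT, and the test of whether the sex difference itself changed with genotype is the one given above for the Ugt2b genes, which called Ugt2b37 alone on control diet.

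**Figure D4:**
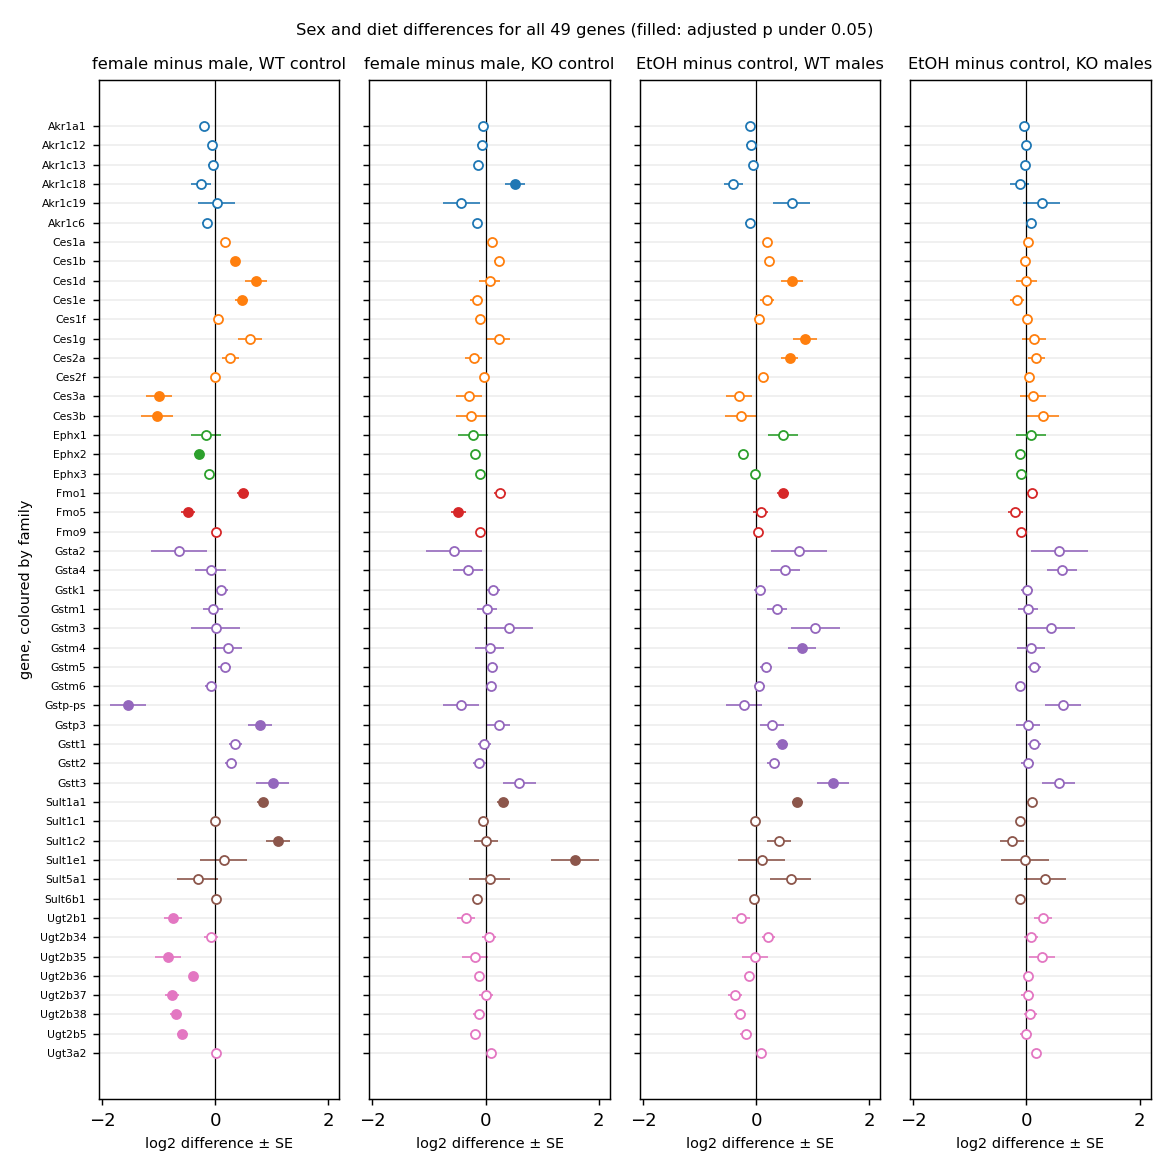
Log2 difference with its standard error for each of the 49 genes, coloured by family, for female minus male in control-fed WT and KO mice and for EtOH minus control in WT and KO males, with filled points for adjusted p under 0.05. In WT mice 19 points are filled for sex and in KO mice 4, and for EtOH 8 are filled in WT males and 0 in KO males.

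Other genes of drug handling were read from lists of conjugating enzymes outside these families, cofactor supply, other oxidizing and reducing enzymes, xenobiotic transporters and regulators. In control-fed and EtOH-fed males 55.6% and 40.6% of all genes were called, and in females 5.58% and 12.8%, so the male counts below are not read as particular to these lists. In control-fed KO males 2 of 7 other conjugating enzymes rose and 2 fell, in EtOH-fed KO males 1 rose and 1 fell, and in females 0 were called on either diet. Nnmt, which methylates nicotinamide, was lower in KO males, with differences of -1.29 ± 0.33 (adjusted p = 0.00354) on control diet and -1.54 ± 0.33 (adjusted p = 0.00217) on EtOH. Of 7 cofactor genes 1 rose and 2 fell in control-fed KO males, and Gclc, the enzyme that limits glutathione synthesis, was the largest at -0.65 ± 0.20 (adjusted p = 0.0103). Of 16 oxidizing and reducing enzymes 1 rose and 0 fell in control-fed KO females, 4 rose and 2 fell in EtOH-fed KO females, 1 rose and 0 fell in control-fed KO males and 2 rose and 6 fell in EtOH-fed KO males. Aldh1a1, a retinal dehydrogenase, was higher in the KO in all 4 comparisons, by 0.67 and 0.56 in control-fed and EtOH-fed females and by 0.36 and 0.35 in males. Of 16 transporters 0 rose and 1 fell in control-fed KO females, 1 and 3 in EtOH-fed females, 4 and 3 in control-fed males and 1 and 4 in EtOH-fed males. Abcb11, the bile salt export pump, was lower in the KO, with differences of -0.49 in control-fed females, -0.66 in control-fed males and -0.45 in EtOH-fed males. On EtOH 6 transporters rose and 2 fell in WT males, against 8.17% of all genes called, with Slco2b1, an uptake carrier of organic anions, at 0.57 ± 0.11 (adjusted p = 0.0044). Of 10 regulators 3 rose in control-fed KO males, 3 rose and 1 fell in EtOH-fed KO males and 3 fell in EtOH-fed KO females. The probe of Nr1i2, the gene of the pregnane X receptor itself, was not lower in the KO. It gave 0.53 ± 0.13 (adjusted p = 0.00246) in control-fed males, and since the deleted part of the gene is not given here it does not check the genotype labels.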

How the data were processed

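Liver RNA was read on 32 Affymetrix arrays, 4 in each of 8 groups of sex, genotype and diet, grouped by the labels. The values are log2 intensities from the deposited series table, for 10964 probes, spread from 1.246 to 13.613. The submitters' processing notes name oligo and limma. Background correction, normalization and the selection of probes are not given in the sources used here. Probes were named through the platform annotation: 8474 had 1 symbol, 632 several (not used) and 1858 no entry, and 239 symbols were updated through RefSeq. Where a gene had several probes the one with the highest mean was kept, giving 8426 genes.

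limma 3.58.1 (R 4.3.3) fitted 8 group means to all 32 arrays without a filter, with Benjamini-Hochberg adjustment over all 8426 genes, two-sided. The 14 comparisons were genotype, diet, sex on control diet, diet by genotype and genotype by sex. The fit was tested on simulated data. Genes were named by family: up to 4 called in genotype or diet comparisons by adjusted p, up to 2 called by sex in control-fed WT, and a set of drug enzymes, of which 7 of 12 were measured. Other members were named where a count needed them, after their values were seen. The members and gene lists were chosen with earlier results of these data known. Alternatives were quantile normalization, centring, a filter on the dimmest 33.33% of genes, all probes, the arrays of a comparison alone, a replicate block, a term for narrow arrays, leaving out each array and, chosen after seeing the data, leaving out 3 WT arrays, all 6 arrays with another best group or both narrow KO female arrays. Precision is set by there being 4 arrays in a group. Promoter windows are RefSeq's, on GRCm38.p6.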

Additional observations from a re-analysis of the deposited data

Results flagged for a closer look

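Within groups of 4 arrays, 15 of 264 tested sets of values had 1 array far from the other 3, where chance gives about 1 in 20. Array 1 of the EtOH-fed WT males accounted for 5 of them and was the lowest each time: Ephx1 read 11.10 with the next array at 12.00, Gstm1 12.16 against 12.88, Gstp-ps 9.47 against 11.13, Ugt2b35 9.45 against 10.71 and Ugt2b38 9.29 against 9.68. In the same group array 4 was lowest for Fmo1 at 10.41 against 10.64. Array 2 of the control-fed WT males was highest for Ugt2b36 at 11.23 against 10.93.

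Among females, array 1 of the EtOH-fed KO group was highest for Gstm1 at 12.87 against 12.44 and for Ces1g at 11.22 against 10.73. Array 4 of the EtOH-fed WT females was lowest for Akr1c6 at 10.65 against 10.88 and highest for Ces2a at 10.29 against 10.16. Array 3 of the control-fed WT females was highest for Ugt2b37 at 8.33 against 8.02, and array 1 of the control-fed KO females was lowest for Akr1c6 at 10.77 against 10.93. In control-fed KO males array 1 was lowest for Akr1c13 at 8.61 against 8.89 and array 4 for Ces3a at 12.27 against 12.50.

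The genotype effect differed between females and males, by the test of that difference in limma, for Ugt2b37 on control diet (0.77 ± 0.17 SE, adjusted p = 0.0469) and on EtOH (0.57 ± 0.17, adjusted p = 0.0385), and for Ugt2b5 on EtOH (0.49 ± 0.14, adjusted p = 0.0328).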

How the results depend on the processing

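Of 62 calls of named genes, 7 held in every alternative and 29 without each single array. Calls lost were 9 after quantile normalization, 4 after centring arrays on their medians, 2 with the dimmest genes left out, 0 with all probes, 32 on the arrays of a comparison alone, 30 with a term for the narrow arrays, 3 without both narrow KO female arrays, 3 without the 3 WT arrays and 5 without all 6 arrays with another best group. The direction turned once: Sult6b1 in control-fed males gave -0.08 after quantile normalization. The causes were not tested, but some losses follow from the design. The arrays of a comparison alone leave fewer samples to estimate the spread. The narrow-array term is set by the control-fed KO females alone, which widens the SE of male genotype differences. With it, the sizes given above moved little for some genes and shrank for others.

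Counts of the 49 genes called moved by over 1.5 times as follows. For genotype they were 2 in control-fed males and 1 in EtOH-fed males with the narrow-array term, and in EtOH-fed males 5 on those arrays alone and 17 without the 3 WT arrays. For diet, counts without the 3 WT arrays were 9 in WT females, 2 in KO females and 18 in WT males, and on the arrays alone 1 in KO females and 0 in WT males. The diet by genotype count in males was 1 after quantile normalization and 14 without the 3 WT arrays. For sex, the WT count was 7 on its arrays alone, and the KO count 1 without the dimmest genes, 1 on its arrays alone and 0 with the narrow-array term. The genotype by sex count on control diet was 4 after centring, 7 without both narrow KO female arrays, and 0 without the dimmest genes, on its arrays alone, with the narrow-array term or without the 3 WT arrays. On EtOH it was 1 after quantile normalization, 5 after centring, 1 on its arrays alone, 0 with the narrow-array term and 9 without the 3 WT arrays. Without all 6 arrays, counts moved to 14 for genotype in EtOH-fed females, 9, 6 and 18 for diet in WT females, KO females and WT males, 7 for sex in the KO, 10 for diet by genotype in males, and 0 and 10 for genotype by sex on control diet and EtOH.

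With each array left out in turn, the genotype counts ran from 2 to 4 and 3 to 9 in control-fed and EtOH-fed females and from 15 to 24 and 4 to 16 in males. The diet counts ran from 1 to 17 in WT males and stayed at 0 in WT females and in KO mice of both sexes. Sex counts ran from 11 to 19 in the WT and 1 to 5 in the KO, diet by genotype from 0 to 2 in males and at 0 in females, and genotype by sex from 0 to 5 on control diet and 0 to 4 on EtOH.

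The groups share replicate numbers in the titles, but the numbers did not pair the arrays: over 112 same-numbered pairs the deviations from the group means correlated at a median of 0.00504 (from -0.492 to 0.397, 25 over 0.1), against -0.00428 for other pairs. A replicate block left every count within 1.5 times and lost 1 call, the sex difference of Gstt3. Probes below the array medians were not shown to be above background.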
